A study of Homo sapiens with 6 samples.

Results

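The RUNX loci are 3 windows of the hg19 genome build drawn around RUNX1, RUNX2 and RUNX3: chromosome 21 from 36140000 to 36500000, chromosome 6 from 45270000 to 45550000 and chromosome 1 from 25200000 to 25320000. Their members are the H3K27ac peaks that overlap these windows, 54 of 56420 peaks in M2 macrophages and 29 of 31444 peaks in THP-1 cells. H3K27ac is histone H3 acetylated at lysine 27, a mark of active promoters and enhancers. M2 macrophages are the alternatively activated state of these phagocytes, and the labels do not give the cells from which they were made. THP-1 is an established line of human monocytic leukaemia cells. Both groups were grown in RPMI medium with fetal bovine serum, and no treatment, genotype or time is given for either. The series has 6 libraries, 1 each for H3K27ac, the transcription factor YY1 and input DNA in each cell type. Those for YY1 and input were not used here. With 1 H3K27ac library per cell type nothing measures the spread between libraries, so no difference below has a replicate check and no p-value is given.

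RUNX proteins bind DNA through the Runt domain, as heterodimers with the non-binding partner CBFB, at a core site written TGTGGT. RUNX1 is required for the formation of blood stem cells, is a frequent target of leukaemia translocations and works with PU.1 at myeloid genes. RUNX2 is the master regulator of bone formation, and RUNX3 is best known in cytotoxic T cells, sensory neurons and innate lymphoid cells. Each of the 3 genes is transcribed from a distal and a proximal promoter.

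Sequences upstream of RUNX starts are shown because RUNX genes can be regulated by RUNX proteins and because the distal starts of RUNX2 and RUNX3 hold paired core sites. They come from RefSeq in GRCh38.p14, a different build from the peaks, so no peak was placed on them. The table matched RUNX1 at 1 start, and RUNX2 and RUNX3 at a distal and a proximal start each. Capitals mark TGTGGT or TGCGGT on either strand in the 250 bases before the start, read on the strand of the gene. No copies of these strings overlap each other in the RUNX windows.
RUNX1, only listed start, minus strand, GRCh38.p14 chr21:34888700-34888949: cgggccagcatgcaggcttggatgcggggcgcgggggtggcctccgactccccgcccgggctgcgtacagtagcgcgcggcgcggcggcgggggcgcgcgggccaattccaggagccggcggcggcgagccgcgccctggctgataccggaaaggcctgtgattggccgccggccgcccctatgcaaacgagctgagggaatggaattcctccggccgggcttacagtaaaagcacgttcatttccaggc
RUNX2, distal start, plus strand, GRCh38.p14 chr6:45328080-45328329: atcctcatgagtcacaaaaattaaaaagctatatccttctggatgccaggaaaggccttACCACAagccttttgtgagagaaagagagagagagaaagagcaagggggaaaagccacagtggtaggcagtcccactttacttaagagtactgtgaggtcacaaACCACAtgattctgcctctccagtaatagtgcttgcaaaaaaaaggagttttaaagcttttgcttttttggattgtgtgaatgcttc
RUNX3, distal start, minus strand, GRCh38.p14 chr1:24965011-24965260: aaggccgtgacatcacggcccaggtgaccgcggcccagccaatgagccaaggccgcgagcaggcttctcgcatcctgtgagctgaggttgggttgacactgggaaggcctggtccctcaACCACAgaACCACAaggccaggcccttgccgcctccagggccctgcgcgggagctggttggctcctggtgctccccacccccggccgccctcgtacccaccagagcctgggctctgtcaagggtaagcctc

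The longest stretch common to the distal RUNX2 and RUNX3 windows of 300 bases is 18 bases long and holds 2 copies of TGTGGT, read as ACCACA on the strand of the gene. It lies just after the listed start in RUNX2 and before it in RUNX3, and is in capitals here within 30 bases of each.
RUNX2, plus strand, GRCh38.p14 chr6:45328338-45328367: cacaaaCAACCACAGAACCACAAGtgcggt
RUNX3, minus strand, GRCh38.p14 chr1:24965120-24965149: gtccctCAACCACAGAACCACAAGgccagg
This stretch occurs in 2 of the 35116 promoter windows of the table, those 2. It was picked as common to those 2 windows, so the count could not be below 2 and does not measure how unusual the stretch is. Among the other pairs of listed RUNX windows the longest common stretch was 16 bases, between RUNX1 and proximal RUNX2. TGTGGT alone occurs at least 1 time in 13.1% of all windows and at least 2 times in 1.31%, with 4 copies in the distal RUNX2 window and 2 in the distal RUNX3 window. TGCGGT occurs in 7.29% of all windows and in the distal RUNX2 window. Neither string is in the window of the only listed RUNX1 start or in the proximal windows of RUNX2 and RUNX3. The other RUNX1 promoter is not listed, so it was not searched. The distal RUNX2 window is 42.7% G and C, against 66.3% for distal RUNX3 and 72% for RUNX1, and the proximal windows of RUNX2 and RUNX3 are each 76%.

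Gene neighbours were read from the same RefSeq table by name only. The nearest coding gene on 1 side is a CLIC gene at every locus, CLIC6 beside RUNX1, CLIC5 beside RUNX2 and CLIC4 beside RUNX3; these encode chloride intracellular channel proteins. In that build RUNX2 overlaps SUPT3H, which encodes a subunit of the SAGA acetyltransferase complex, so peaks of the RUNX2 window cannot be assigned to RUNX2 alone. RUNX1 overlaps the non-coding genes RUNX1-AS1 and RUNX1-IT1, and RUNX3 overlaps RUNX3-AS1 and MIR6731.

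Across the whole lists M2 peaks were 1.79 times as many as THP-1 peaks and covered 2.19 times as much sequence, with 61.3 Mb inside M2 peaks and 28.0 Mb inside THP-1 peaks. Fold enrichment is the signal at a summit over the local background, and -log10 q its adjusted significance, both as the authors' peak caller gave them for each peak. The number of fragments over each summit was recovered from fold enrichment and p-value, and its height is given below as a multiple of the lowest background of the list. The recovered median was 39 fragments in M2 and 40 in THP-1. Local background at a summit, on the same scale, had a median of 2.38 in M2 and 5.04 in THP-1. In such bulk material, more acetylated cells and more acetylation per cell cannot be told apart.

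All 3 RUNX windows carried H3K27ac in both cell types, and each held more M2 than THP-1 peaks. RUNX1 had 27 M2 and 19 THP-1 peaks, RUNX2 had 17 M2 and 7 THP-1 peaks, and RUNX3 had 10 M2 and 3 THP-1 peaks. The ratio of M2 to THP-1 peaks was 1.42 at RUNX1 (exact 95% interval 0.761 to 2.70), 2.43 at RUNX2 (0.957 to 6.93) and 3.33 at RUNX3 (0.858 to 18.8). These intervals cover counting error only, and each includes the 1.79 of the whole lists, so at these numbers no locus stands apart from it. The direction at RUNX1 turned in lists of equal length, with 16 M2 and 19 THP-1 peaks, a ratio of 0.842. It also turned without the long M2 run described below, with 17 M2 and 19 THP-1 peaks. In lists of equal length the ratio was lower at the other loci too, 1.29 at RUNX2 and 1.67 at RUNX3.

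Covered length gave the same order. In the RUNX1 window 43.2 kb lay inside M2 peaks and 23.6 kb inside THP-1 peaks, a ratio of 1.83. The RUNX2 window had 20.7 kb for M2 and 7.24 kb for THP-1, a ratio of 2.87. For RUNX3 the M2 length was 9.93 kb and the THP-1 length 3.26 kb, a ratio of 3.05. Over all 3 windows the ratio was 2.17, close to the 2.19 of the whole lists. The windows were densely marked in both cell types: peaks covered 12.0% of the RUNX1 window in M2 and 6.54% in THP-1. At RUNX2 they covered 7.41% in M2 and 2.59% in THP-1, and at RUNX3 8.28% in M2 and 2.71% in THP-1. Over the span of all chromosomes the shares were 2.08% in M2 and 0.950% in THP-1. That span is not limited to genes, whereas the windows are drawn around them, and windows around other genes were not compared.

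**Figure D1:**
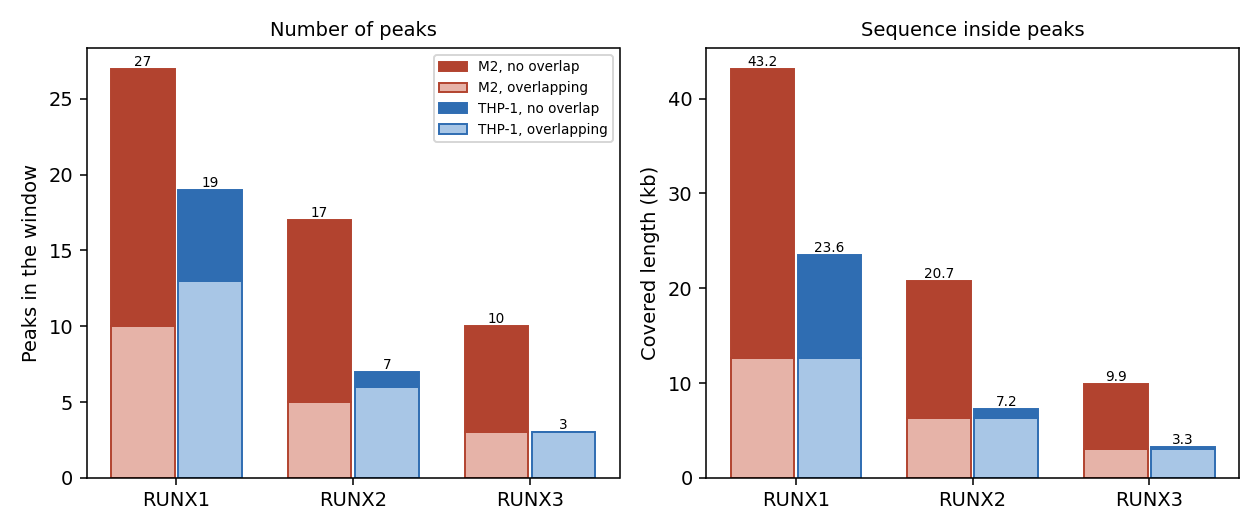
Number of peaks (left) and covered length in kb (right) in the RUNX1, RUNX2 and RUNX3 windows, for M2 (red, left bar) and THP-1 (blue, right bar), 1 library each. Pale parts overlap the other list and dark parts do not; the M2 bar is the taller in every window, and the THP-1 bar of RUNX3 has no peak without overlap.

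Of the 54 M2 peaks in the windows, 36 overlapped no THP-1 peak, 66.7% against 63% of all M2 peaks. By locus these were 17 of 27 at RUNX1, 12 of 17 at RUNX2 and 7 of 10 at RUNX3. Of the 29 THP-1 peaks, 7 overlapped no M2 peak, 24.1% against 24.7% of all THP-1 peaks. They were 6 of 19 at RUNX1, 1 of 7 at RUNX2 and 0 of 3 at RUNX3. The shares of the family are near those of the whole lists, so the count of unshared peaks says nothing particular about RUNX genes.

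Sharing can also be read from the other side, as 10 of 27 M2 and 13 of 19 THP-1 peaks at RUNX1, which is 37.0% of the M2 peaks (interval 19.4 to 57.6) and 68.4% of the THP-1 peaks (43.4 to 87.4). At RUNX2 it was 5 of 17 M2 peaks, 29.4% (10.3 to 56.0), and 6 of 7 THP-1 peaks, 85.7% (42.1 to 99.6). At RUNX3 it was 3 of 10 M2 peaks, 30% (6.67 to 65.2), and 3 of 3 THP-1 peaks, 100% (29.2 to 100). The whole lists had 37% of M2 and 75.3% of THP-1 peaks shared, inside every one of these intervals. Counted in bases, 12.7 kb at RUNX1, 6.29 kb at RUNX2 and 3.09 kb at RUNX3 lay in peaks of both lists. That is 29.3%, 30.3% and 31.1% of the M2 length, against 53.8%, 86.9% and 94.9% of the THP-1 length. Over the whole lists 29.97% of the M2 length and 65.8% of the THP-1 length was shared, and the 3 windows together had 29.9% for M2 and 64.8% for THP-1, near those values.

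The placing of the peaks is given locus by locus, as a description of 1 library per cell type. All 3 windows had consecutive M2 peaks without a THP-1 counterpart, 10 at RUNX1, 4 at RUNX2 and 5 at RUNX3, which made up 40.9%, 7.56% and 23.2% of the M2 length of their windows. Of all M2 peaks 63% had no counterpart, and runs elsewhere in the list were not measured. Whether such runs are particular to these windows was therefore not tested.

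**Figure D2:**
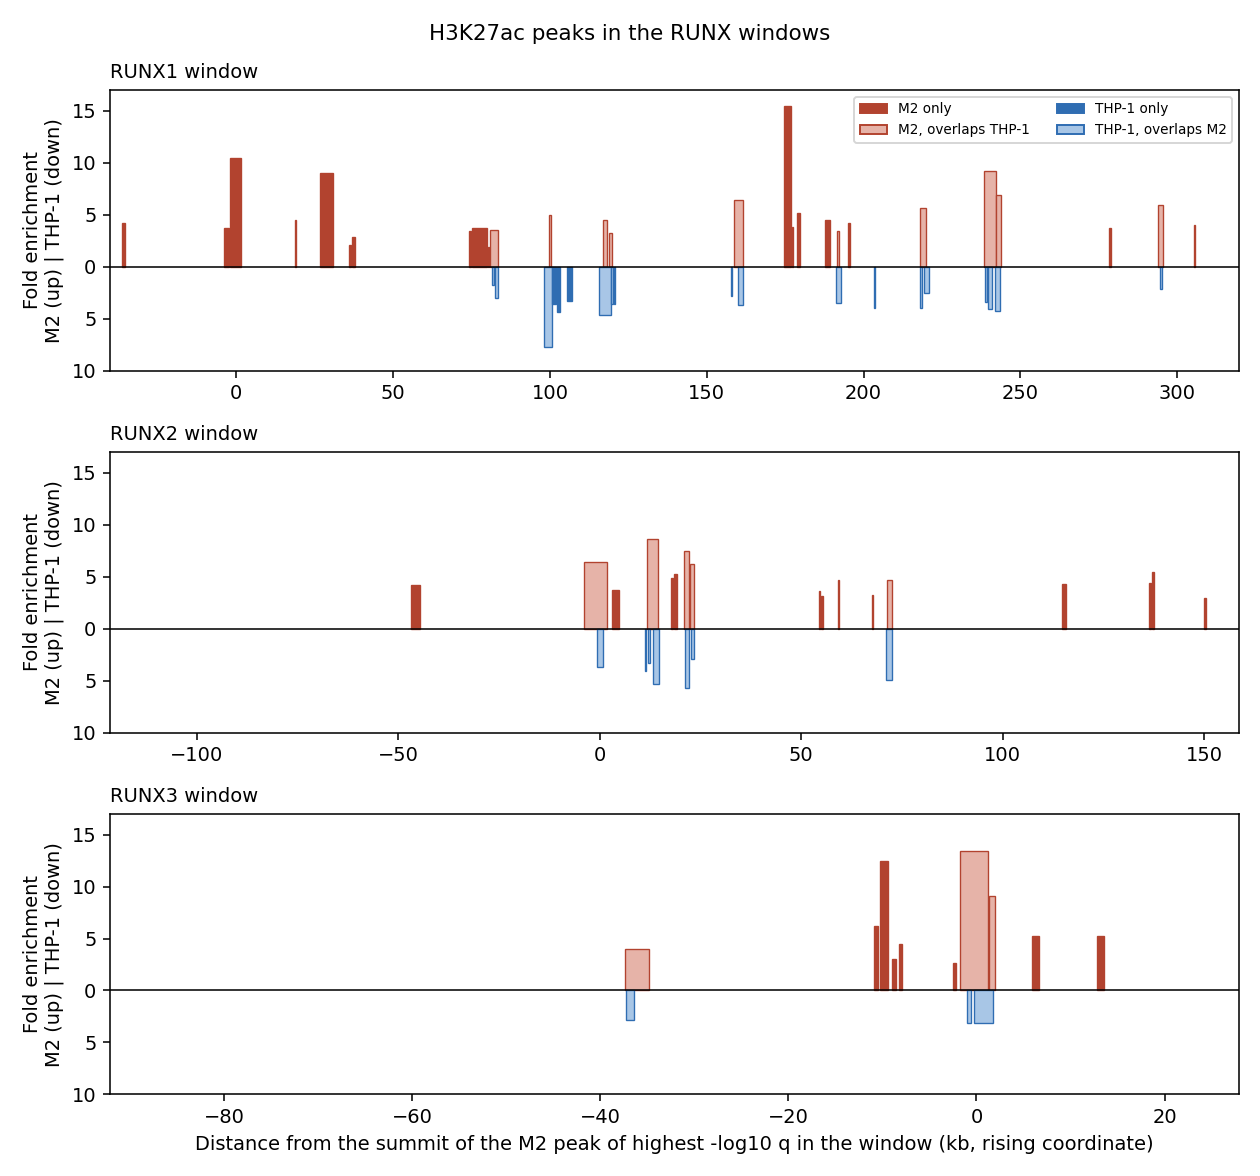
Peaks of the 3 windows as bars as wide as the peak, with fold enrichment upward for M2 (red) and downward for THP-1 (blue); dark bars overlap no peak of the other list. The horizontal axis is the distance in kb from the summit of the M2 peak of highest -log10 q. RUNX1 has 10 M2 peaks at its left end with no THP-1 peak below them, and RUNX3 has 3 THP-1 peaks, each below an M2 peak.

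At RUNX1, 10 consecutive M2 peaks from 36143695 to 36260900 had no THP-1 counterpart. They spanned 117.2 kb, covered 17.7 kb and made up 40.9% of the M2 length in the window. The THP-1 list was empty from 36118855 to 36261814, a gap of 143.0 kb. Of the 10 peaks, 7 had a -log10 q of at least 10, as did 17 of the 27 M2 peaks of the window. The median of the whole M2 list was 13.4, so most M2 peaks pass this cut. In the rest of the RUNX1 window M2 peaks covered 1.08 times as much sequence as THP-1 peaks, a comparison chosen after seeing the data.

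The strongest M2 peak of all 3 windows lay in this run, at 36178350 to 36181663 on chromosome 21. Its fold enrichment was 10.5 and its -log10 q was 139.2, rank 382 of the M2 list, with 261 fragments over the summit. No THP-1 peak lay closer than 59494 bp. The second, at 36206958 to 36210892, had a fold enrichment of 9.01, a -log10 q of 122.8 (rank 642) and 255 fragments, and lay 50921 bp from a THP-1 peak. Their heights were 113.4 and 110.8 times the lowest M2 background, above the 62.9 of the highest THP-1 peak in the window. Both sites were strongly marked in M2, and neither had a peak called in the monocytic line.

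The widest M2 peak of the window, at 36255415 to 36260164, spanned 4750 bp with a fold enrichment of 3.74, and ended the run together with a peak of 383 bp at 36260518 to 36260900. The next M2 peak, at 36261224 to 36263763, was shared with 2 THP-1 peaks. Its height was 62.6 in M2, and those of the THP-1 peaks were 53.8 and 59.5. The shared site and the run without THP-1 peaks thus lay side by side.

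Local background was also raised along this run in M2. It was 2.06 to 37.2 times the lowest background of the list, with a median of 13.9, and 7 of the 10 peaks were in the top 10% of all M2 peaks by background. The THP-1 background at these positions is in no column, since no THP-1 peak was called there. Just past the right end of the run it was high in THP-1 too. The THP-1 peaks starting at 36261814 and 36262611 had 30.4 and 19.2 times the lowest of their list, against 17.6 for the M2 peak over them. The part of background in the result was not tested.

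A further M2 stretch without counterpart held the peak of highest fold enrichment of all 3 windows. This peak lay at 36354888 to 36356989, with a fold enrichment of 15.5, a -log10 q of 75.3 and 106 fragments, 13157 bp from the nearest THP-1 peak. Its background was 2.49 times the lowest of the list, within the range of the long run but below its median of 13.9. It belonged to a group of 6 M2 peaks from 36354888 to 36376090, covering 7.04 kb, over which THP-1 had 1 peak covering 1.65 kb.

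THP-1 cells were the more widely marked at 36278198 to 36300957. The M2 list had 3 peaks in this cluster, covering 3.44 kb, against 7 in the THP-1 list, covering 11.01 kb. Joining peaks within 12500 bp of each other gave this region rank 143 of 17061 in the THP-1 list by covered length, within its top 0.838%. The M2 region of the window with the most covered sequence lay elsewhere, at 36254410 to 36263763, with 8.27 kb and rank 1039 of 25897 in its own list. Ranks hold within a list and were not compared between lists.

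The THP-1 peak of highest fold enrichment at RUNX1 opened this region, at 36278198 to 36280771. Its fold enrichment was 7.72 and its -log10 q 40.4. The M2 peak of 880 bp inside it had a height of 19.99, against 43.6 for the THP-1 peak. The widest THP-1 peak of the window, 3755 bp at 36295900 to 36299654, met M2 peaks with heights of 15.6 and 14.8, against its own 25.5. Between them lay 3 THP-1 peaks with no M2 counterpart, from 36280995 to 36287157. The strongest of these was at 36282340 to 36283491, with a fold enrichment of 4.33, a -log10 q of 17.8 and 59 fragments, and the M2 list had its nearest peak 1646 bp away. A separate THP-1 peak without counterpart, at 36383481 to 36384054, had a -log10 q of 13.5 and lay 7390 bp from an M2 peak.

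Toward the right end of the RUNX1 window both cell types carried a broad mark at about the same place. An M2 peak of 3933 bp at 36418544 to 36422476 had a fold enrichment of 9.20 and a height of 51.7. The 3 THP-1 peaks over it had heights of 62.9, 45.3 and 37.4, with summits 2153, 1247 and 2118 bp from the M2 summit. The fold enrichments of those THP-1 peaks were 3.41, 4.06 and 4.26, so the peaks looked weaker in THP-1 by fold enrichment than by height. Local background there was 5.16 in M2 and 8.35 to 18.1 in THP-1.

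RUNX2 was marked chiefly in a region of 27.2 kb, from 45387638 to 45414855 on chromosome 6. Its 7 M2 peaks covered 13.3 kb, against 5.78 kb for the 6 THP-1 peaks, and it ranked 357 of 25897 in the M2 list by covered length. The same THP-1 region, 45390776 to 45414829, ranked 624 of 17061 in its list. Of the 7 THP-1 peaks of the window, 6 lay in it.

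The widest M2 peak of all 3 windows lay in it, 5582 bp at 45387638 to 45393219, with a fold enrichment of 6.44 and 185 fragments. The THP-1 peak inside it spanned 1363 bp and had a fold enrichment of 3.67 and 40 fragments. Their summits were 1 bp apart, and the height was 80.4 in M2 and 22.7 in THP-1, a ratio of 3.55. Background there was the higher in M2, 12.0 against 5.76 in THP-1.

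Further along, the M2 peak of highest fold enrichment at RUNX2, 8.66 at 45403222 to 45405837, met the widest THP-1 peak, 5.38 at 45404525 to 45406135, with summits 20 bp apart. Their heights were 46.5 in M2 and 39.7 in THP-1. The THP-1 peak of highest fold enrichment, 5.73 at 45412489 to 45413506, lay under an M2 peak of height 34.3, against its own 34.6. The M2 peak at 45403222 to 45405837 also overlapped a narrow THP-1 peak at 45403334 to 45403773. The height of that THP-1 peak was 7.37, so M2 was 6.31 times as high, the largest ratio of the 25 overlapping pairs in the windows, with summits 1432 bp apart. The ratio of 6.31 therefore does not compare the same position, and the same M2 summit was 1.17 times as high as the THP-1 summit 20 bp away. Pairs close to level thus lay in the same region as the pair of ratio 3.55, whose summits were 1 bp apart.

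Away from this region the RUNX2 window held 10 M2 peaks and 1 THP-1 peak. The M2 peak at 45344647 to 45346959 had a -log10 q of 61.0 and 249 fragments, 43816 bp from the nearest THP-1 peak. Its fold enrichment was 4.21, with a local background 25.3 times the lowest of the M2 list, whose part in the result was not tested. The M2 peak without counterpart at 45527674 to 45528103 had a -log10 q of 17.2. A run of 4 M2 peaks without counterpart, from 45445733 to 45459157, spanned 13.4 kb and covered 1.57 kb, with -log10 q from 4.86 to 8.01. The THP-1 peak outside the region, at 45462464 to 45463920, was shared, with a height of 13.03 in M2 and 23.2 in THP-1.

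Inside the region some peaks also had no counterpart. The M2 peak at 45409937 to 45410587 had a -log10 q of 16.2. The single THP-1 peak of the window without counterpart, at 45402534 to 45403026, had a -log10 q of 5.28 and 17 fragments and lay 195 bp from an M2 peak.

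RUNX3 carried the strongest difference in fold enrichment at a shared site. The M2 peak at 25290391 to 25293274 on chromosome 1, both the widest and the highest by fold in the window, had a fold enrichment of 13.4, a -log10 q of 81.1 and 126 fragments. The THP-1 peaks under it, at 25291126 to 25291529 and 25291881 to 25293860, had fold enrichments of 3.12 and 3.09 with 62 and 88 fragments. In height the site was much closer, 54.7 in M2 against 35.1 and 49.9 in THP-1, whose summits lay 715 and 211 bp from the M2 summit. Background was 3.61 in M2 and 10.9 and 15.8 in THP-1. These values were solved from fold enrichment and p-value, so they are no separate measure. The part of background in the result was not tested.

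The remaining THP-1 peak of RUNX3, at 25254805 to 25255676, had a fold enrichment of 2.88, a -log10 q of 6.14 and 37 fragments. It lay inside an M2 peak of 2626 bp at 25254693 to 25257318, with a fold enrichment of 3.98 and 84 fragments. Heights were 36.5 in M2 and 20.96 in THP-1.

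Between these sites M2 cells had 5 consecutive peaks without counterpart, from 25281230 to 25289877, covering 2.30 kb. The strongest, at 25281878 to 25282702, had a fold enrichment of 12.5, a -log10 q of 33.9 and 51 fragments, 8423 bp from a THP-1 peak. Its neighbour at 25281230 to 25281640 had a fold enrichment of 6.19 and a -log10 q of 12.97. The other 3 had -log10 q from 1.34 to 5.70. On the far side 2 further M2 peaks each had 17 fragments over the lowest background of the list, a fold enrichment of 5.21.

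The peaks found in M2 alone can be set beside the THP-1 peaks of the same window by height, which is not corrected for local background, or by fold enrichment, which is. By height, at RUNX1, 9 of 17 were higher than the median THP-1 peak of the window (27.8), and 5 were higher than the highest (62.9). These 5 all lay in the long run with raised background, and their fold enrichments ranged from 1.93 to 10.5. At RUNX2, 2 of 12 exceeded the THP-1 median of 23.2 and 1 exceeded the highest THP-1 peak. At RUNX3, 0 of 7 exceeded the THP-1 median of 35.1, and 1 was higher than the lowest THP-1 peak (20.96). Fold enrichment gave another order of loci, with RUNX3 the furthest above its THP-1 peaks and RUNX2 the closest to them. The median of the peaks found in M2 alone was 4.04 at RUNX1, against 3.57 for the THP-1 peaks of the window, 4.25 against 4.10 for THP-1 at RUNX2, and 5.21 against 3.09 for THP-1 at RUNX3. At RUNX3 this M2 median was above the highest THP-1 fold enrichment of 3.12. The median -log10 q there was 6.60 for the peaks found in M2 alone and 11.9 for the THP-1 peaks. Over the whole lists the median fold enrichment was 5.42 in M2 and 3.67 in THP-1. Higher fold enrichment in M2 is thus not particular to these windows.

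**Figure D3:**
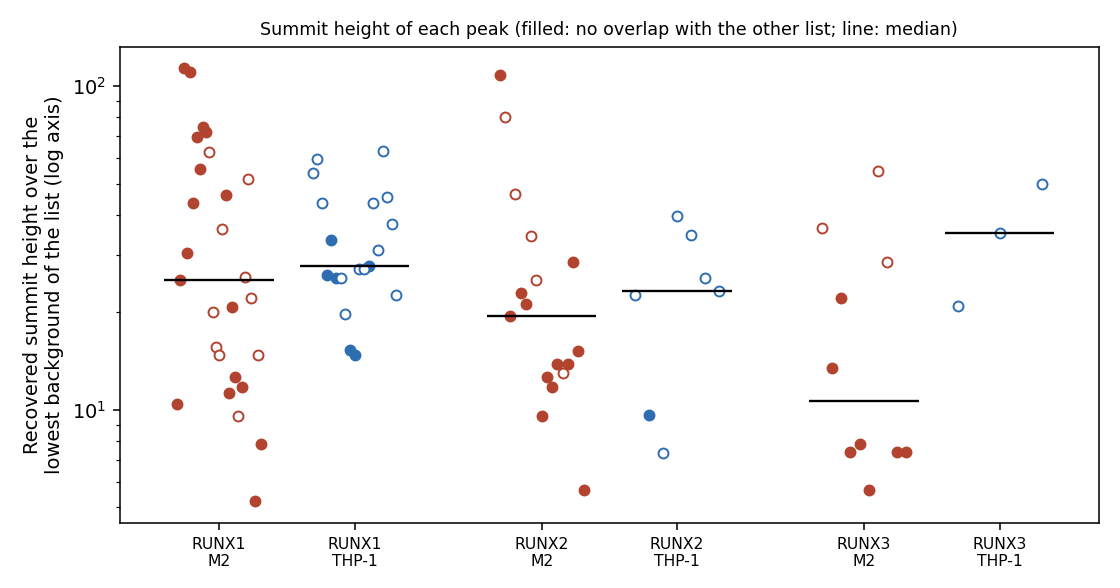
Recovered summit height of each peak over the lowest background of its list (log axis), by locus and cell type, M2 left of THP-1; filled points overlap no peak of the other list and lines are medians. Unshared M2 peaks of RUNX1 reach 113.4, above all THP-1 points, while those of RUNX3 lie below the THP-1 median.

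Among the M2 peaks in the top 10% of their list by -log10 q, 7 lay in the windows, and 4 of these overlapped no THP-1 peak. In the whole M2 list 28.5% of the top 10% had no counterpart, inside the interval of 18.4 to 90.1% for the 4 of 7. They were 3 of 4 at RUNX1, 1 of 2 at RUNX2 and 0 of 1 at RUNX3. The single THP-1 peak of the windows in the top 10% of its list overlapped an M2 peak, where 6.8% of that top 10% had no counterpart.

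Where peaks overlapped, 25 M2 and THP-1 pairs could be set side by side, and pairs can share a peak. Summits lay within 200 bp of each other in 9 of the 25, 36% against 60.8% of all pairs. By locus these were 5 of 15 pairs at RUNX1, 4 of 6 at RUNX2 and 0 of 4 at RUNX3. In the other pairs the heights belong to summits further apart, so they do not compare the same position. M2 was the higher in 5 of 15 pairs at RUNX1, 3 of 6 at RUNX2 and 3 of 4 at RUNX3. The median ratio of heights, M2 over THP-1, was 0.745 at RUNX1 (range 0.352 to 1.38), 1.08 at RUNX2 (0.561 to 6.31) and 1.33 at RUNX3 (0.575 to 1.74). Over the 24622 of all 24682 pairs of the genome that had both heights recovered it was 1.00 (interquartile range of single pairs 0.667 to 1.53). Fold enrichment, by contrast, was the higher in M2 in 19 of the 25 pairs, and in 84.8% of all pairs. In width, M2 led in 18 of 25 pairs, 72%, and in 72.7% of all pairs.

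**Figure D4:**
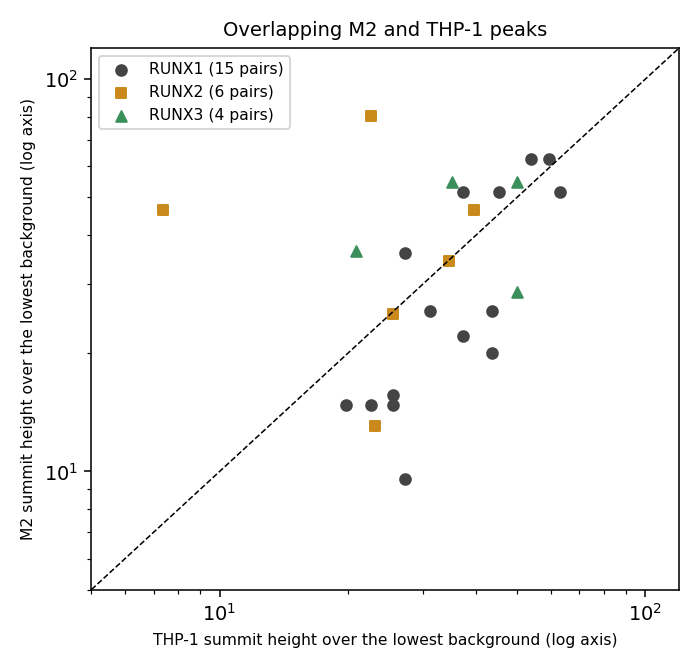
Summit heights of overlapping peaks over the lowest background of each list, THP-1 on the horizontal and M2 on the vertical axis (both log), for 15 pairs at RUNX1, 6 at RUNX2 and 4 at RUNX3; the dashed line marks equal height. Most RUNX1 pairs lie below the line, and 2 RUNX2 pairs lie far above it. These have 46.5 in M2 and 7.37 in THP-1, with summits 1432 bp apart, and 80.4 in M2 and 22.7 in THP-1, with summits 1 bp apart.

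The background at these pairs was lower in M2 in all but 3 of the 25. Over the genome it was higher in M2 in 4259 of the 24622 pairs with recovered values, so a lower M2 background is not particular to these windows. Its median ratio, M2 over THP-1, was 0.578, and 0.481 over those pairs of the genome. Its highest value was 2.69, at RUNX2, and its lowest 0.171, at RUNX3. RUNX1 had the lower background in M2 in 15 of 15 pairs, which come from 10 M2 and 13 THP-1 peaks and are not separate observations.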

How the data were processed

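Chromatin was fixed with formaldehyde and sonicated, and libraries were sequenced as paired ends, per the labels' protocols. The submitters' processing notes name Bowtie2, MACS2 2.1.0 and hg19 without settings, and no source used here tells whether input served as control. The authors deposited 1 peak list per cell type, without header, read in narrowPeak order. Fold enrichment (a ratio), -log10 p, -log10 q and the score of each peak are the authors' deposited values. The lowest -log10 q was 1.31 in M2 and 1.30 in THP-1. The Y chromosome was left out.

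Peaks sharing at least 1 bp counted as overlapping (checked against bedtools 2.31.1 on simulated intervals). Fragments over each summit were recovered by solving fold enrichment, with a pseudocount of 1, together with the Poisson p-value for a whole number, within 0.002 in -log10 p, with the pileup scaled by 0.842 in M2 and unscaled in THP-1. Exactly 1 number fitted 99.6% of the M2 list and 100% of the THP-1 list, and this step was tested on simulated data. They are an inference, not read counts of the authors. Height is the scaled pileup over the lowest background, 1.94 in M2 and 1.77 in THP-1. Intervals are exact (Clopper-Pearson) 95% intervals, which cover counting error only. Named peaks are, per window and list, the widest, the highest by fold and the 3 list-only peaks of highest -log10 q, every peak where there are 6 or fewer, and the longest runs. Peaks beyond these were chosen after their values were seen, and the windows and lists were chosen with earlier results of these data known.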

Additional observations from a re-analysis of the deposited data

How the results depend on the processing

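Settings tried were a -log10 q of at least 10, lists of equal length (31444 peaks each), peaks within 1000 bp merged, sharing at 50% of the narrower peak or within 1000 bp, and windows shrunk by 10% or widened by 50%. The share of THP-1 peaks shared at RUNX2 became 100% with peaks merged and with sharing within 1000 bp. At RUNX3 the ratio of covered length became 4.73 with widened windows. Covered length was greater in M2 at every locus and setting, 1.42 to 1.99 times at RUNX1, 2.04 to 4.03 at RUNX2 and 2.26 to 4.73 at RUNX3. The ratio of peak numbers at RUNX1 turned to 0.842 in lists of equal length, 16 M2 and 19 THP-1 peaks. It was 1.33 or more at RUNX1 in the other settings of this group. In lists of equal length the ratio was 1.29 at RUNX2, with 9 M2 and 7 THP-1 peaks. At RUNX3 it was 1.67 in those lists, with 5 M2 and 3 THP-1 peaks. Of the 10 peaks in the long M2 run at RUNX1, 7 stayed in the list of equal length. Without that run, chosen after seeing the data, RUNX1 had a ratio of covered length of 1.08 and of peak numbers of 0.895, and 58.8% of its M2 peaks were shared. With sharing within 1000 bp the lists are the same, and the RUNX2 THP-1 peak 195 bp from an M2 peak counts as shared; the other shifts named come with peaks removed, joined or added. No paired analysis was possible because each cell type has 1 library. RUNX3 rests on 3 THP-1 peaks, so its shares and ratios have wide intervals.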
